A study of Mus musculus with 10 samples.

Results

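The genes described here are 10 transcripts of the integrated stress response and its secreted signals: Atf4, Atf5, Ddit3, Trib3, Chac1, Asns, Fgf21, Gdf15, Mthfd2 and Phgdh. They were chosen by name and not by a measured value, though with earlier results of these data known. All 10 were found among the 24537 genes of the table. RNA was sequenced from heart tissue of 10 mice at the age of 6 weeks, 5 of each genotype, and the study's methods describe a transverse section of heart, matched in region between mice. Control mice were Rosa26-rtTA2+/-;TRE-SOD2-shRNA-/- and iSOD2 mice were Rosa26-rtTA2+/-;TRE-SOD2-shRNA+/-, so that both carried 1 copy of the transactivator and only iSOD2 mice carried the hairpin against Sod2. The dams of both groups were fed doxycycline chow from the vaginal plug to birth, and normal chow followed, so knockdown was confined to life in utero. Males numbered 3 among the controls and 2 among iSOD2 mice, and litter A gave 2 mice and litter B 3 mice of either genotype. Sex and litter were unevenly crossed, with 3 males and 1 female in litter A and 2 males and 4 females in litter B. As a model the design has limits: the transactivator was driven by the ubiquitous Rosa26 promoter, so knockdown was not restricted to the heart, the hairpin cassette lay at Col1a1 and was present only in iSOD2 mice, and the controls were littermates born to wild-type C57BL/6J dams.

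In the integrated stress response, kinases that sense amino acid shortage, unfolded protein, viral RNA or mitochondrial damage phosphorylate the translation factor eIF2. General protein synthesis then slows while the mRNAs of Atf4, Atf5 and Ddit3, which hold upstream open reading frames, are translated more. ATF4 pairs with C/EBP proteins at composite C/EBP-ATF response elements and switches on genes for amino acid synthesis and transport, and in heart muscle with failing mitochondria this program and the secreted proteins FGF21 and GDF15, called mitokines, are known to be induced. Because the first step is translational, transcript levels report on the regulators only in part and on their targets more directly.

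The response element was looked for first, because it is the sequence feature at which ATF4 is known to act on its targets. Promoter windows of RefSeq genes (GRCm38.p6), from 250 bases before to 50 bases after each start, were searched on both strands for the core TGATGNAA. It was found in 4 of the 10 genes, Trib3, Chac1, Asns and Fgf21, and in 4.51% of the 27025 genes with a window. The 10 genes were chosen for the ATF4 pathway, so these shares are a description and not a test. The matches lay 193 bases before the start in Chac1, 139 before it in Fgf21 and 23 before it in Asns, while that of Trib3 lay 14 bases after the start. For Asns the start of the window is not that of the transcript counted in the table, from which the match lay 50 bases upstream. Each match is printed with 10 bases on either side, read on the strand that carries the core, which is in capitals.
Chac1, chr2:119351039-119351066, minus strand: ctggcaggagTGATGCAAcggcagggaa
Fgf21, chr7:45615612-45615639, plus strand: cctggacggaTGATGCAAtgggggggtc
Asns, chr6:7693215-7693242, minus strand: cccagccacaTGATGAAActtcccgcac
Trib3, chr2:152344029-152344056, plus strand: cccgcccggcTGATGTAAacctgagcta
Chac1 and Fgf21 held the same 8 letters of the core. A match describes letters in a window and is not a measured binding site, and a gene without one may hold an element elsewhere.

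Libraries held between 16448090.5 and 24263085.5 counts in genes. Sod2, the targeted gene, ranged from 9562 to 11019 normalized counts in control hearts and from 10116 to 11305 in iSOD2 hearts (adjusted p 0.806), which cannot check the genotype labels because the knockdown had ended at birth. Markers of ventricular cardiomyocytes summed to between 1434968 and 1780562 normalized counts in every heart, far above any other list. All 7 hepatocyte markers were detected and varied most, with control hearts at 217 (control 1) to 10292 summed normalized counts and iSOD2 hearts at 5224 to 20283 (iSOD2 10). Summed atrial markers were 870 in iSOD2 10 and 18.8 to 64.4 in the other hearts. Between litters, ventricular cardiomyocyte markers (1617133 to 1780562 in litter A, 1434968 to 1575591 in litter B) and smooth muscle markers (5307 to 6256 in litter A, 7482 to 10931 in litter B) did not overlap, and their part in the litter differences was not tested. In pieces of tissue, fewer cells of a type and less RNA per cell cannot be told apart.

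The genes differed widely in level, which was compared between genes only as normalized counts per kilobase of exon. Atf4, the central transcription factor of the response, was the most abundant at 589 normalized counts per kilobase, a level above that of 90.1% of the genes that passed the count filter. Atf5, a related factor tied to mitochondrial stress, was at 273 and Ddit3, which encodes the transcription factor CHOP, at 251 normalized counts per kilobase, and these neighbours were in this order in only 6 of 10 mice. Chac1, a glutathione-degrading enzyme, followed at 68.6 normalized counts per kilobase. Asns (26.1), Phgdh (21.7), Trib3 (21.0) and Mthfd2 (19.2) formed a group whose ranges overlapped. The mitokines were lowest, with Gdf15 at 5.36 normalized counts per kilobase and Fgf21 below the count filter. Atf4 exceeded Atf5, Ddit3 exceeded Chac1, Chac1 exceeded Asns and Mthfd2 exceeded Gdf15 in 10 of 10 mice.

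Between genotypes, none of these genes was called. The comparison asked whether hearts that had lacked SOD2 only in utero still differed weeks later, and a call required an adjusted p of 0.05 or lower together with a log2 fold change beyond 0.25 in either direction. Of the 9 genes that passed the count filter, 3 were given an adjusted p, DESeq2 called 0, and 0 had an unadjusted p under 0.05. The same counts under edgeR were 0 and 0. Among all 17728 genes, 2343 had an unadjusted p under 0.05 by DESeq2 and 2718 by edgeR. Over all genes DESeq2 called 281 of 9479 with an adjusted p, or 2.96%, while edgeR called 0. The fitted levels were higher in iSOD2 hearts for 5 of the 9 and lower for 4, with a median log2 fold change of 0.04 against −0.0018 over all 17728 genes. The ranges of control and iSOD2 mice overlapped for all 9, where 3.75% of all genes had ranges that did not.

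**Figure D1:**
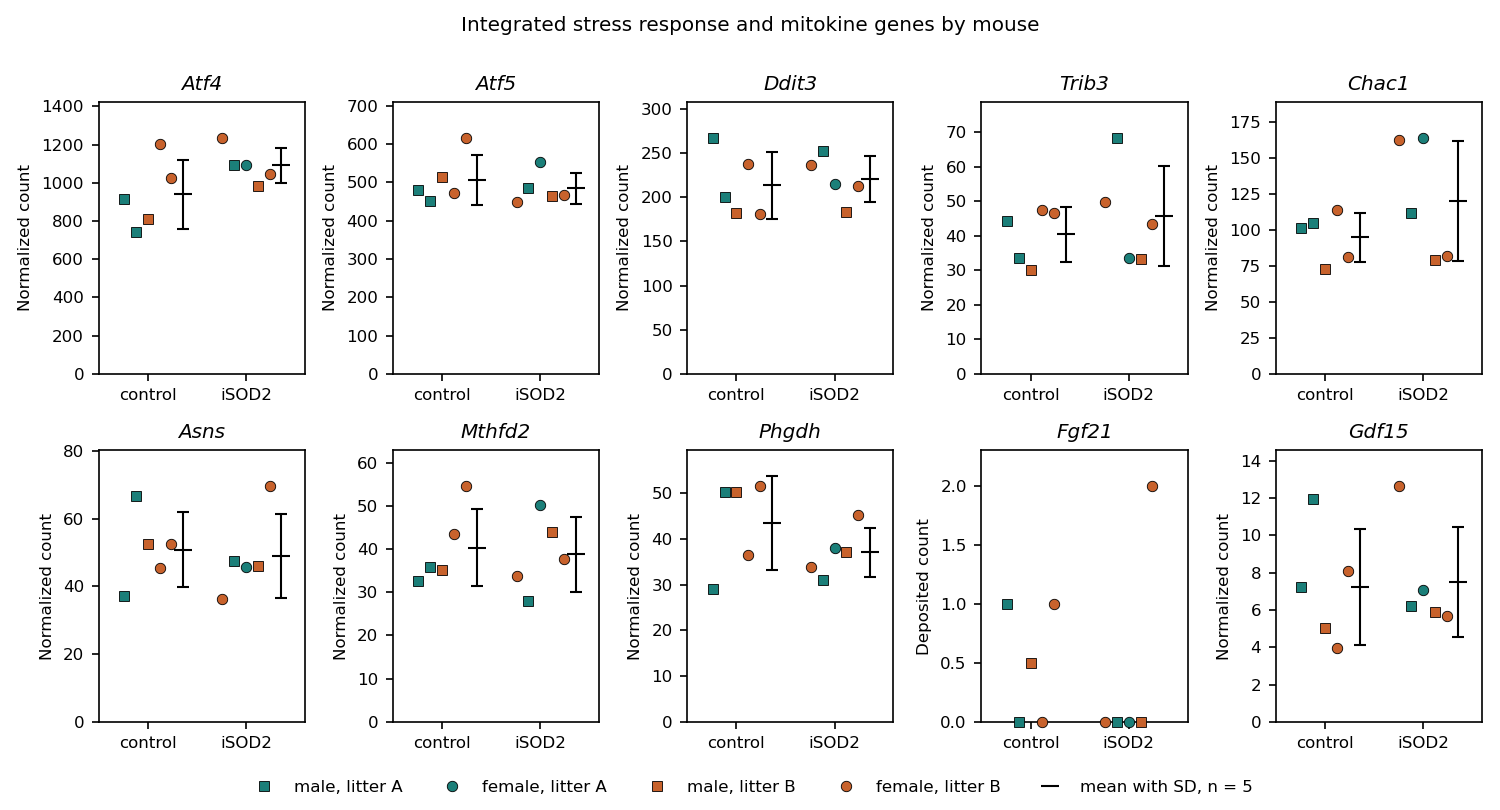
Normalized counts (deposited counts for Fgf21) in each of 10 hearts, by genotype; squares are males, circles females, colours litters, and bars the mean with SD. The ranges of the genotypes overlap in every panel, and Fgf21 is at 0 in 6 of 10 hearts.

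Among the regulators, Atf4 (NM_009716, chr15:80255184-80257545, mm10) had the lowest p. In control mice 1, 2, 3, 4 and 6 it had 916, 744, 813, 1201 and 1023 normalized counts. In iSOD2 mice 5, 7, 8, 9 and 10 it had 1236, 1092, 1093, 984 and 1048. The 3 lowest hearts were control males and every iSOD2 heart lay above them, but both control females lay within the iSOD2 range. The means of 939 ± 181 and 1091 ± 92.7 normalized counts (n = 5 each, ± SD) differed by 0.21 on the log2 scale (SE 0.12, 95% interval −0.01 to 0.44), with an adjusted p of 0.278. Without control 4, a female and the highest control, Atf4 was called, with a log2 fold change of 0.32 and an adjusted p of 0.0243, in a fit that called 492 genes in all. Without control 2, the lowest heart, the log2 fold change was 0.14 (adjusted p 0.552), and with the trend in exon length removed it was 0.13 (adjusted p 0.766). Within litters the log2 fold change of Atf4 was 0.39 in litter A and 0.10 in litter B, and within sexes it was 0.33 in males and 0.016 in females.

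Atf5 (NR_033136, chr7:44812256-44816658) ranged from 451 to 617 normalized counts among controls and from 449 to 554 among iSOD2 mice, with control 6 highest. Its log2 fold change was −0.07 (SE 0.096, adjusted p 0.752). The transcript kept for it in the table is a non-coding RefSeq variant of 1813 bases. Over all annotated transcripts of Atf5, 82 of 1993 exon bases are shared with Nup62 and Il4i1 on the opposite strand. Because the counting stated no strand option, reads in shared bases cannot be assigned to a single gene. The same holds for Ddit3, which shares 68 of 1713 exon bases over all annotated transcripts with Mars. Its kept transcript has 865 bases. Whether the shared bases lie in the kept transcripts was not tested.

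Ddit3 (NM_007837, chr10:127290793-127296288) had 268, 200.5, 182, 238 and 181 normalized counts in control mice 1, 2, 3, 4 and 6. In iSOD2 mice 5, 7, 8, 9 and 10 it had 236, 253, 215, 184 and 213. The iSOD2 values lay wholly inside the control range. The means of 214 ± 37.9 and 220.3 ± 26.1 normalized counts (n = 5 each, ± SD) differed by 0.04 on the log2 scale (SE 0.13, 95% interval −0.22 to 0.30), with an adjusted p of 0.909.

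The feedback gene and the metabolic targets gave wider intervals. None of them, nor Gdf15, was given an adjusted p by DESeq2, whose default filter sets genes of low mean aside. Without that filter their adjusted p ran from 0.570 for Chac1 to 0.986 for Gdf15. Trib3 (NM_175093, chr2:152337425-152344060), a pseudokinase that restrains ATF4 and CHOP, had 44.3, 33.4, 30.1, 47.4 and 46.5 normalized counts in controls 1, 2, 3, 4 and 6. The values in iSOD2 mice 5, 7, 8, 9 and 10 were 49.8, 68.4, 33.5, 33.3 and 43.4. The highest heart was iSOD2 7, a male of litter A, and the others were mixed between genotypes, with a log2 fold change of 0.16 (SE 0.24, exact permutation p 0.476). Without iSOD2 7 the difference was −0.022.

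Chac1 (NM_026929, chr2:119351242-119354327) had the largest fitted difference of the 9. It had 101, 105, 72.7, 114 and 80.9 normalized counts in control mice 1, 2, 3, 4 and 6. In iSOD2 mice 5, 7, 8, 9 and 10 it had 162, 112, 164, 79.2 and 82.0. Both hearts above the control range were iSOD2 females, mouse 5 of litter B and mouse 8 of litter A, while iSOD2 9 and 10 were near the lowest controls. The means of 94.7 ± 17.2 and 119.9 ± 41.5 normalized counts (n = 5 each, ± SD) gave a log2 fold change of 0.34 (SE 0.22, 95% interval −0.10 to 0.78). The two-sided exact permutation p was 0.278, where the smallest possible value is 0.00794. The log2 fold change was 0.42 within litter A, 0.27 within litter B, 0.48 within females and 0.034 within males. It fell to 0.20 without iSOD2 8, to 0.21 without iSOD2 5 and to 0.22 with sex and litter in the model.

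Asns (NM_012055, chr6:7675171-7693182), which makes asparagine, ranged from 37.1 to 66.8 normalized counts among controls and from 36.3 to 69.8 among iSOD2 mice. The ranges nearly coincided and the log2 fold change was −0.05 (SE 0.22, exact permutation p 0.746). Phgdh (NM_016966, chr3:98313171-98339969), the first enzyme of serine synthesis, had 28.9, 50.1, 50.2, 36.5 and 51.6 normalized counts in control mice 1, 2, 3, 4 and 6. In iSOD2 mice 5, 7, 8, 9 and 10 it had 33.8, 31.1, 37.9, 37.2 and 45.2. Of the controls, 3 lay above every iSOD2 heart and control 1 lay below them all. The log2 fold change of Phgdh was −0.22 (SE 0.22, 95% interval −0.65 to 0.22, exact permutation p 0.302), and it was −0.34 without control 1 and −0.14 without control 6. Mthfd2 (NM_008638, chr6:83305704-83317604), a mitochondrial folate enzyme, ranged from 32.6 to 54.6 normalized counts among controls and from 27.97 to 50.3 among iSOD2 mice, with a log2 fold change of −0.06 (SE 0.23, exact permutation p 0.770).

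The mitokines were scarce in these hearts. Gdf15 (NM_001330687, chr8:70629393-70632456), a divergent member of the TGF-beta family that acts on the hindbrain, had 3.5 to 15 deposited counts per library. Its normalized counts were 7.24, 11.9, 5.02, 3.95 and 8.09 in controls 1, 2, 3, 4 and 6. In iSOD2 mice 5, 7, 8, 9 and 10 they were 12.7, 6.22, 7.05, 5.87 and 5.66. Control 2 and iSOD2 5 stood above the rest, one in each genotype. The log2 fold change was 0.07 (SE 0.48, exact permutation p 0.817), and its 95% interval allowed anything from 0.543-fold to 2.03-fold. Fgf21 (NM_020013, chr7:45613890-45615490), a hormone made chiefly by the liver, had 4.5 counts over the 10 libraries together. The deposited counts were 1, 0, 0.5, 0 and 1 in controls 1, 2, 3, 4 and 6, and 0, 0, 0, 0 and 2 in iSOD2 mice 5, 7, 8, 9 and 10. No library reached the floor of 3 counts, which stands for 0.124 to 0.182 CPM here, so Fgf21 was not detectable at this depth in either genotype and no fold change is given. These limits cover counting error only.

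**Figure D2:**
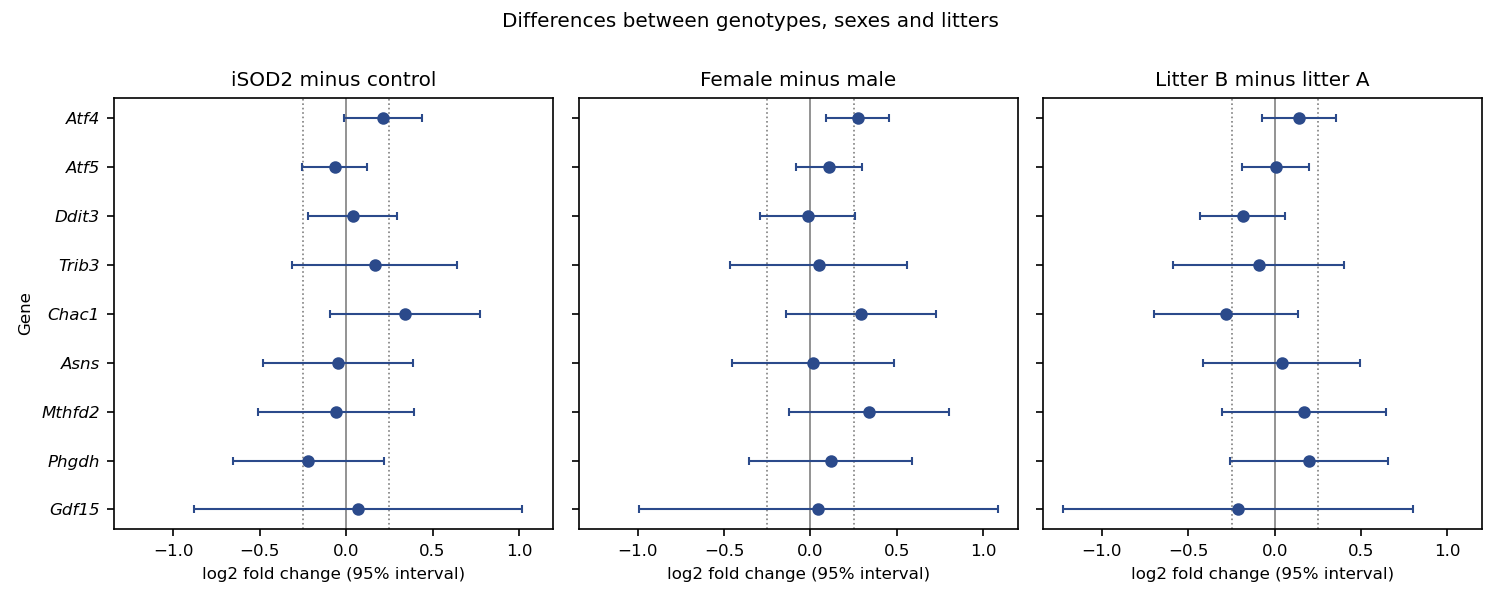
Log2 fold change of the 9 genes that passed the count filter between genotypes, sexes and litters, with 95% intervals from DESeq2; dotted lines mark the threshold of 0.25. Every interval includes 0 except that of Atf4 between the sexes (0.09 to 0.45).

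How far mice of 1 genotype differed was set against the error of counting alone. The coefficient of variation within genotypes was 4.50 times the counting error for Atf4, 3.06 times for Chac1, 2.45 times for Atf5 and 2.21 times for Ddit3. It was 1.11 times for Gdf15, 1.28 for Phgdh and 1.40 for Mthfd2. With 1 library per mouse, what exceeds the counting error includes library preparation, sex and litter as well as the mouse, and these cannot be told apart.

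Sex and litter, which crossed genotype, were tested with genotype in the model. Between sexes DESeq2 called 0 of the 9 genes and 1 had an unadjusted p under 0.05, with the same 0 and 1 under edgeR, where 0.42% of all genes tested were called by DESeq2. Among all 17728 genes, 1170 had an unadjusted p under 0.05 by DESeq2 and 1503 by edgeR. The gene of the 9 under 0.05 was Atf4, with 1120.2 ± 94.1 normalized counts in females and 909.7 ± 138 in males (n = 5 each, ± SD). Males had 744 to 1092 and females 1023 to 1236, so the ranges overlapped. The log2 fold change was 0.27 (SE 0.093, unadjusted p 0.00334) and failed the correction over all genes (adjusted p 0.238). Mthfd2 (0.34) and Chac1 (0.29) had larger fitted sex differences with SEs of 0.24 and 0.22, and with litter also in the model that of Chac1 was 0.51. In all 8 of the 9 were fitted higher in females, where 51.0% of all genes were, with a median of 0.11 against 0.0031 over all genes. Among them Asns (0.016), Gdf15 (0.045) and Trib3 (0.047) had differences far below their SEs. The shared direction was not tested.

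Between litters DESeq2 called 0 of the 9 genes, 0 had an unadjusted p under 0.05, and edgeR gave 0 and 0, where DESeq2 called 3.5% of all genes tested. Among all 17728 genes, 2297 had an unadjusted p under 0.05 by DESeq2 and 2852 by edgeR. The largest fitted difference of the 9 was that of Chac1, with a log2 fold change of −0.28 (SE 0.21) in litter B against litter A. With sex also in the model it was −0.50. For the interaction of genotype with sex, DESeq2 passed 0 of the 9 genes and 0 of 17725 genes in all (0%), of which 210 had an unadjusted p under 0.05, and edgeR also passed 0 with 487. The fitted interaction was −0.31 (SE 0.17) for Atf4, 0.45 (SE 0.45) for Chac1, −0.64 (SE 0.55) for Trib3 and 0.91 (SE 1.2) for Gdf15, where a positive value means a larger iSOD2 difference in females. With 2 or 3 mice in each cell these intervals were wide, and no difference between the sexes in the response to genotype was shown.

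To see whether the genes were high in the same hearts, their correlation across the 10 mice was computed for the 8 genes whose mean reached 10 normalized counts. Of 28 pairs, 14 had a positive Pearson's r and 14 a negative one, 4 had an unadjusted permutation p under 0.05 and 0 passed after adjustment over the 28. By Spearman's rho 1 pair passed, Ddit3 with Phgdh, which ran in opposite directions. Its r was −0.84 (permutation p 0.00393, adjusted 0.11) and its rho −0.92 (permutation p 0.00056, adjusted 0.0157). The r was −0.72 without controls 1 and 6, the mice farthest from the median of Ddit3, −0.70 within the 6 mice of litter B and −0.96 within the 4 of litter A. Control 1, with the most Ddit3 and the least Phgdh, also had the fewest hepatocyte counts, whose part in the relation was not tested.

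Asns and Phgdh, both enzymes of amino acid synthesis, had an r of 0.77 (permutation p 0.00865, adjusted 0.121) and a rho of 0.72 (permutation p 0.0231, adjusted 0.216), neither past the adjusted threshold. The r was 0.78 without control 2 and iSOD2 10, 0.71 within litter B and 0.92 within litter A. Ddit3 and Trib3 had an r of 0.66 (permutation p 0.0397, adjusted 0.283), a rho of 0.61 (permutation p 0.0674, adjusted 0.229) and an r of 0.70 within litter B and 0.90 without controls 1 and 6. Atf5 and Mthfd2 had an r of 0.65 (permutation p 0.0405, adjusted 0.283) but a rho of 0.31 (permutation p 0.384, adjusted 0.538), and their r of −0.24 without control 6 and iSOD2 8 showed that it rested on those mice. Atf4 had an r of 0.61 with Trib3, 0.52 with Chac1, 0.42 with Ddit3, −0.48 with Asns and −0.50 with Phgdh, none past the adjusted threshold. Asns and Phgdh thus had a negative r with each of Atf4, Ddit3, Trib3 and Chac1, which describes 10 hearts and was not tested as a pattern.

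**Figure D3:**
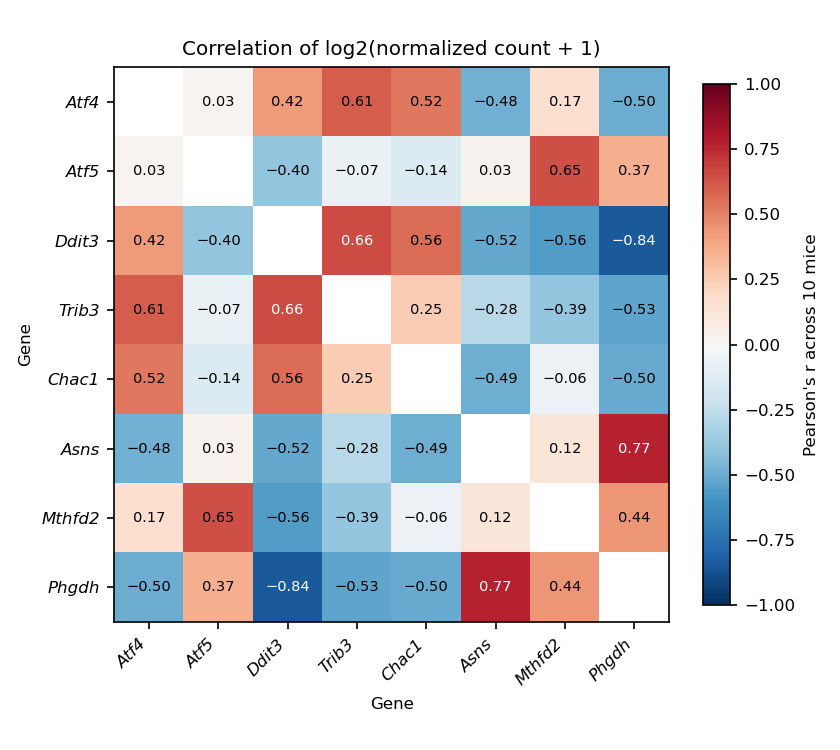
Pearson's r of log2(normalized count + 1) across 10 mice for the 8 genes whose mean reached 10 normalized counts; red is positive and blue negative. The strongest values are −0.84 for Ddit3 with Phgdh and 0.77 for Asns with Phgdh.

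The wider pathway was read from 10 lists of 88 other gene symbols, among which Dele1 stands under both its symbols. Of the 88 symbols, 85 passed the count filter. Between genotypes DESeq2 called 1 of the 63 that had an adjusted p, where 2.96% of all such genes were called, and edgeR called 0. Of the 85, 41 were fitted higher in iSOD2 hearts and 44 lower, with a median of −0.01.

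The called gene was Cebpb, which encodes a C/EBP partner of ATF4 and is abundant in liver. It had 213, 234, 191, 382 and 228 normalized counts in control mice 1, 2, 3, 4 and 6. In iSOD2 mice 5, 7, 8, 9 and 10 it had 537, 327, 351, 350.2 and 366. Every iSOD2 heart lay above 4 of the 5 controls, and control 4, which was also the control highest in Atf4 and Chac1, lay within the iSOD2 range. The means of 249 ± 76.1 and 386 ± 85.4 normalized counts (n = 5 each, ± SD) differed by 0.63 on the log2 scale (SE 0.18, adjusted p 0.0171). Under edgeR the adjusted p was 0.134, and with the trend in exon length removed it was 0.101. The call was also lost without control 1 (adjusted p 0.0654), control 2 (0.0609), control 3 (0.111), control 6 (0.0507) or iSOD2 5 (0.0801). In all, it held in 10 of 21 alternatives and was lost in 11. It held with genotype, sex and litter in the model (0.57, adjusted p 0.00620) and without control 4 (0.84, adjusted p 7.03e-06). Leaving out iSOD2 7, 8, 9 or 10 also kept it (adjusted p 0.0197 to 0.0349). The log2 fold change was 0.61 within litter A, with no adjusted p, and 0.64 within litter B (adjusted p 0.704). It was 0.45 within females (adjusted p 0.9997) and 0.67 within males, with no adjusted p. Cebpb was called in none of the fits within a single litter or sex. Hepatocyte markers, given above, were at a median of 5676 summed normalized counts in controls and 10727 in iSOD2 hearts, and their part in the Cebpb difference was not tested.

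In the same list of ATF4 partner and feedback factors, 6 of 9 genes had an adjusted p and 5 were fitted higher, with a median of 0.05. Neither Cebpd (0.42, SE 0.18, adjusted p 0.144) nor Ddit4, an inhibitor of mTORC1 (0.62, SE 0.36, adjusted p 0.336), was called. Cebpg, the C/EBP partner of ATF4 in amino acid responses, had 0.18 (adjusted p 0.315) between genotypes. Between litters Cebpg was higher in litter B, with 662 ± 57.1 normalized counts (SD, n = 6) against 539 ± 47.7 in litter A (SD, n = 4), a log2 fold change of 0.30 (adjusted p 0.00163, edgeR 0.0181), which lost its call without control 1 (adjusted p 0.0557). The ventricular and smooth muscle markers that separated the litters are given above, and their part in this difference was not tested.

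Upstream, 0 of the 9 measured kinases, phosphatase subunits and mitochondrial relay genes were called, with a median of 0.02. The lowest p were those of Eif2ak1, the heme-regulated kinase that relays mitochondrial stress (log2 fold change −0.14, adjusted p 0.186), Ppp1r15b (−0.16, 0.193), Ppp1r15a (0.22, 0.367) and 0610009O20Rik (0.10, 0.379). None of the 5 eIF2B subunits, the exchange factor that phosphorylated eIF2 blocks, was called (median 0.04), with Eif2b1 at 0.16 (adjusted p 0.262), Eif2b5 at 0.04 (0.784), Eif2b2 at 0.05 (0.790) and Eif2b4 at −0.03 (0.824).

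Downstream, 0 of the 4 amino acid transport genes with an adjusted p were called, and 5 of the 8 measured were fitted lower, with a median of −0.07. Slc38a2, the amino acid carrier SNAT2, had the lowest p (log2 fold change −0.27, adjusted p 0.124), followed by Slc7a1 (−0.18, 0.194), Slc1a5 (0.13, 0.460) and Slc7a5 (−0.18, no adjusted p). Of the enzymes of serine, proline and one-carbon metabolism 0 of the 4 with an adjusted p were called, and 6 of the 11 measured were fitted higher, with a median of 0.0084. Cth, the transsulfuration enzyme that makes cysteine, averaged 34.9 ± 10.4 normalized counts in controls and 57.6 ± 11.8 in iSOD2 hearts (n = 5 each, ± SD). Its log2 fold change was 0.74 (SE 0.23), with no adjusted p under the default filter, an exact permutation p of 0.0159 and an edgeR adjusted p of 0.130. The ranges of Cth overlapped, at 26.3 to 52.7 in controls and 39.4 to 69.8 in iSOD2 hearts. The part of the hepatocyte markers, given above, in this difference was not tested. Mthfd1l, which follows MTHFD2 in the mitochondrial folate pathway, had 0.45 (SE 0.19, edgeR adjusted p 0.2504). Aldh18a1 (−0.20, adjusted p 0.220) and Aldh1l2 (−0.25, adjusted p 0.249) were fitted lower.

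Of 12 cytosolic tRNA synthetases, which ATF4 is known to raise together, 0 were called and 7 were fitted lower, with a median of −0.02. Iars had the lowest p, with 1471 to 1707 normalized counts among controls and 1281 to 1432 among iSOD2 mice. These ranges did not overlap, as was so for 3.75% of all genes. The log2 fold change of Iars was −0.24 (SE 0.057, adjusted p 0.00312, edgeR 0.0745), which passed the p threshold under DESeq2 only and not the fold threshold. Aars (−0.09, adjusted p 0.307), Tars (−0.10, 0.484) and Nars (0.07, 0.553) followed.

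Of the 7 genes of the mitochondrial unfolded protein response, 0 were called and 5 were fitted higher, with a median of 0.02. Hspe1, the mitochondrial chaperonin HSP10, ranged from 930.4 to 1164 normalized counts among controls and from 1188 to 1284 among iSOD2 mice. These ranges did not overlap, as was so for 3.75% of all genes. The log2 fold change of Hspe1 was 0.22 (SE 0.063, adjusted p 0.0152, edgeR 0.109), below the fold threshold. Clpp, the matrix protease, had 0.18 (adjusted p 0.0575), Hspd1, the partner chaperonin of Hspe1, 0.08 (0.518) and Afg3l2 −0.06 (0.548). In the IRE1 and ATF6 branches of the endoplasmic reticulum stress response 0 of the 9 genes with an adjusted p were called, of 10 measured, with a median of −0.05. Ern1 (−0.24, adjusted p 0.121), Herpud1 (0.37, 0.218), Hspa5 (−0.11, 0.405) and Dnajb9 (0.10, 0.631) had the lowest p.

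**Figure D4:**
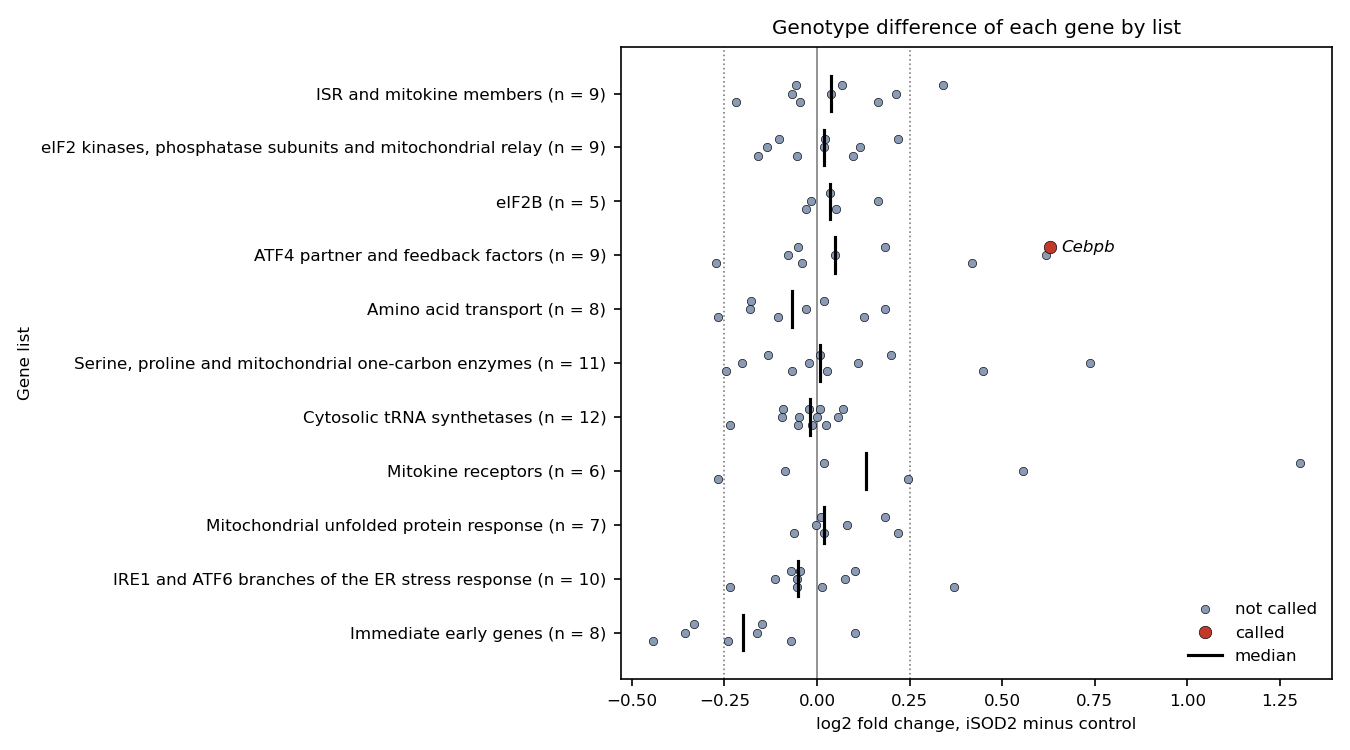
Log2 fold change between iSOD2 and control hearts for each gene, by list, with the number that passed the count filter; the black bar is the median of each list and the dotted lines mark 0.25. Cebpb, at 0.63, is the only called gene, and the list medians lie between −0.20 and 0.13.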

How the data were processed

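Hearts of 10 mice were analysed. Per the labels and the study's methods, libraries were made from ribosome-depleted, stranded total RNA, and the authors aligned reads with STAR to GRCm38 (mm10) and summed them over the exons of 1 transcript per gene with HOMER. The deposited values are estimated counts, in steps of 0.5, and were not normalized by the authors. The other deposited column is an exon length in base pairs, an other unit, used for levels per kilobase. No strand option of the counting was stated in the sources used here.

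Counts were rounded, and the 17728 genes whose counts came to 10 or more over all libraries were kept. Depth was 16448090.5 to 24263085.5 counts per library, so 3 counts, the floor used for detection, stood for at most 0.182 CPM. The genotype comparison used DESeq2 1.42.0 (R 4.3.3), the tool, though not the version, of the study's methods, which also give the count filter. The Wald test, default independent filtering and the absence of a covariate were choices made here, with Benjamini-Hochberg adjustment over all genes. Normalized counts used DESeq2 size factors. Sex and litter were tested with genotype in the model. Mice were compared gene by gene with the two-sided exact permutation test over 252 arrangements where named. Nothing in the labels states separate dissection or library batches. The p-values rest on the spread between the libraries of different mice, which includes library preparation. In the genotype fit that spread also includes sex and litter. Correlations used log2(normalized count + 1) and permutation tests with 100000 resamples. On counts simulated for the genotype comparison over 17728 genes, DESeq2 recovered 48% of genes changed by 0.5 on the log2 scale and 100% of those changed by 1. Only genes averaging 50 or more normalized counts were changed in the simulation. Trib3 (43.0), Phgdh (40.3), Mthfd2 (39.5) and Gdf15 (7.37) averaged less, so these shares do not describe them. Nor do they describe Chac1 and Asns, which like those 4 were given no adjusted p.

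The genes and lists were chosen with earlier results of these data known. The text names all 10 genes, up to 4 genes of each list by lowest genotype p, and every called gene of a list. The gene known as Dele1 was looked for under that symbol and as 0610009O20Rik, and matched the second. Overlaps with other genes came from GENCODE vM21 of the same build. Alternatives were edgeR 4.0.16 quasi-likelihood, TMM scaling, other count filters, removal of the trend in exon length, a model with genotype, sex and litter, each litter and sex alone, and leaving out each mouse. A correlation centred on genotype and edgeR for the interaction were added after seeing the data.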

Additional observations from a re-analysis of the deposited data

Results flagged for a closer look

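Dixon's test for 1 stray value in a group of 5 was run on 32 groups, the 2 genotypes of the 9 genes above the count filter and of the 7 list genes called in a comparison, and 3 were marked, where chance alone marks about 1 in 20 groups, or 1.6 of these. Gdf15 in iSOD2 5 was at 12.7 normalized counts, above the 5.66 to 7.05 of the other iSOD2 hearts. Cebpb was marked in both genotypes, in control 4 at 382 normalized counts against 191 to 234 in the other controls and in iSOD2 5 at 537 against 327 to 366 in the other iSOD2 hearts. Both Cebpb hearts were females of litter B, and iSOD2 5 was also the heart with the most Atf4.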

How the results depend on the processing

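Mice could not be paired by number, since the control mice (1, 2, 3, 4 and 6) and the iSOD2 mice (5, 7, 8, 9 and 10) share none, but both litters hold both genotypes. A model with genotype, sex and litter called 222 genes between genotypes, 61 between sexes and 462 between litters, and 0 of the genes described here in each. The count of 0 called genes between genotypes held in 21 of 22 alternatives, and ran from 0 to 1 when 1 mouse was left out, the 1 being Atf4 without control 4. In most of these fits Trib3, Chac1, Asns, Gdf15, Mthfd2 and Phgdh had no adjusted p and could not be called. The counts of 0 between sexes, between litters and for the interaction held in all 18, 18 and 12 alternatives. The correlated pairs were 1 when centred on genotype, and 0 to 1 with 1 mouse left out. The promoter count rose to 7 of 10 with the shorter core TGATG, which 42.9% of genes held. Chac1 stayed higher and Phgdh lower in iSOD2 hearts in all 21 and 20 alternatives, and Atf4 higher in all 21, with 0.20 to 0.46, −0.34 to −0.14 and 0.14 to 0.32 when 1 mouse was left out. The other 6 log2 fold changes changed sign: Atf5 to 0.16 within litter A, Ddit3 to −0.090 without the exon length trend and −0.0063 within litter A, Trib3 to −0.15 within females, Asns to 0.041 within females and 0.0095 within litter B, Gdf15 to −0.043 without the length trend, −0.52 within litter A and −0.41 within males, and Mthfd2 to 0.20 within litter A and 0.066 within males. With 1 mouse left out they ran from −0.12 to 0.015 for Atf5, −0.018 to 0.13 for Ddit3, −0.022 to 0.26 for Trib3, −0.21 to 0.069 for Asns, −0.22 to 0.31 for Gdf15 and −0.17 to 0.079 for Mthfd2. The cause was not tested.

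Over all genes the 281 calls between genotypes became 0 with edgeR, 116 without the length trend, 63 to 150 within 1 litter or sex, 577 without a fold threshold and 166 to 492 with 1 mouse left out. The 73 between sexes became 29 with edgeR and 41 to 146 with 1 mouse left out, and the 548 between litters 365 and 300 to 705. The interaction gave 0 to 9 with 1 mouse left out. Depth limits the detection of Fgf21, and the spread of Gdf15 was 1.11 times its counting error.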

Other observations

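Of the 8 immediate early genes, which rise within minutes of handling, stretch or injury, 0 of the 4 with an adjusted p were called between genotypes (median log2 fold change −0.20 over the 8) and 3 of the 8 between litters, where 3.5% of all genes tested were called. These were Fos, Egr1 and Junb, all lower in litter B. Summed smooth muscle markers (5307 to 6256 in litter A, 7482 to 10931 in litter B) and ventricular cardiomyocyte markers (1617133 to 1780562 and 1434968 to 1575591) did not overlap between litters either, and their part in these differences was not tested. Fos, a subunit of the transcription factor AP-1, ranged from 81.1 to 153 normalized counts over the 4 litter A mice and from 22.6 to 65.5 over the 6 litter B mice, which did not overlap, differing by −1.65 on the log2 scale (SE 0.25, adjusted p 1.49e-08, edgeR 0.00412). Egr1 differed by −0.87 (SE 0.17, adjusted p 2.92e-05, edgeR 0.0133). Junb had −0.44 (adjusted p 0.0254, edgeR 0.0841) and lost its call without control 1, 3 or 4 or iSOD2 5, 7, 8 or 10 (adjusted p 0.0589 to 0.168), and with sex in the model (−0.43, adjusted p 0.0838). Between sexes Jun and Btg2 were lower in females, with log2 fold changes of −0.33 (adjusted p 0.0401, edgeR 0.244) and −0.55 (adjusted p 0.0478, edgeR 0.340). Jun lost its call without control 1, 2 or 4 or iSOD2 5, 7, 8 or 9 (adjusted p 0.0573 to 0.459), and Btg2 without any mouse but control 3 (adjusted p 0.137 to 0.877) and with litter in the model (−0.36, adjusted p 0.282). Ier2 had a genotype difference of 0.10 with no adjusted p.

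Of the mitokine receptor genes 6 of 7 passed the count filter and 0 of the 3 with an adjusted p were called between genotypes (median 0.13 over the 6). Gfral, the receptor of GDF15, was the one below the filter, and Ret, its co-receptor, differed by −0.27 on the log2 scale (SE 0.17, adjusted p 0.4003). Klb, the co-receptor of FGF21, was scarce, averaging 8.54 ± 4.60 normalized counts among controls and 12.5 ± 5.18 among iSOD2 hearts (n = 5 each, ± SD). Fgfr4 averaged 2.39 ± 1.599 and 5.80 ± 2.76 normalized counts (n = 5 each, ± SD), with no adjusted p under the default filter and an edgeR adjusted p of 0.288. The part of the hepatocyte markers in the Klb and Fgfr4 differences was not tested. Fgfr3 differed by 0.25 (SE 0.20, adjusted p 0.523). Other marker lists overlapped between genotypes in summed normalized counts: fibroblast (12025 to 13710), endothelium (15223 to 18535), smooth muscle (5307 to 10931, separated by litter as above), macrophage (2786 to 4054), skeletal muscle (1950 to 4960), adipocyte (266 to 355) and pancreatic acinar (1.81 to 10.03, with Amy2b at 0) over all hearts.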
